A study of Mus musculus with 24 samples.

Results

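Reactive astrocyte genes are genes that astrocytes are known to raise when the brain is injured or overexcited. The set described here holds 10 of the 53379 genes counted in the mouse hippocampus: Gfap, Vim, Nes, Serpina3n, Lcn2, Cd109, Steap4, Cp, Aspg and Emp1. They were chosen by name as genes known from reactive astrocytes in injury models, with earlier results of these data known, and all 10 passed the filter on low counts that left 37598 genes for testing.

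Astrocytes answer seizures, infection and loss of blood flow with a change of state in which they thicken their processes and lay down intermediate filaments, the rope-like proteins that stiffen a cell. They also secrete acute phase proteins, a group best known from the liver, where cytokines of the interleukin-6 family switch them on through the transcription factor STAT3. Some reactive genes rise in most kinds of injury and are called pan-reactive, while others were described mainly after bacterial endotoxin or mainly after ischaemia. Several are not particular to astrocytes: endothelial cells make nestin and Emp1, neural progenitors make nestin and vimentin, and neutrophils make lipocalin 2.

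The study asked how gene expression in neurons and glia had changed early in the development of epilepsy. Adult male C57/BL6N mice, obtained at 8 weeks of age and kept for 4 weeks before use, received kainic acid (KA), a glutamate receptor agonist that sets off status epilepticus, into the deep cortex next to the right hippocampus. Sham mice (SH) underwent the same anaesthesia, craniotomy and injection with saline, and KA mice without convulsive seizures had been excluded. Right hippocampi were taken 24 hours after status epilepticus, and nuclei were sorted by an antibody to NeuN into NeuN+ nuclei, called neurons, and NeuN- nuclei, called glia. The 8 mice of each treatment made 3 pools, with 4 mice in replicate 1 and 2 mice each in replicates 2 and 3, so that each of the 4 groups (SH glia, KA glia, SH neurons, KA neurons) had 3 libraries and no value belongs to a single mouse. The NeuN- nuclei hold every cell without NeuN, among them oligodendrocytes, microglia and vascular cells beside astrocytes. The RNA is that of nuclei, copied from poly(A) tails, and p values measure the spread between these pools.

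Counts per library ranged from 7769400 to 40364768 (median 21380824.5). SH glia replicate 1 and KA glia replicate 2 were amplified from 0.05 ng RNA with 15 cycles, and the other 10 libraries from 1 ng with 10 cycles. The 4 libraries numbered 3 had the 4 lowest TMM scaling factors, 0.663 to 0.846, against 0.930 to 1.55 in the other libraries. The summed level of 10 neuronal markers was 4879 to 8034 CPM (counts scaled to a common library size) in neurons and 472 to 1768 CPM in glia, and that of 10 astrocyte markers (such as Aldh1l1, Aqp4 and Slc1a2) was 907 to 2784 CPM in glia and 207 to 643 CPM in neurons. Each set of markers was thus also found in the other fraction. Whether this was carried-over RNA or expression there was not tested. Levels are in CPM scaled by TMM, logFC is the log2 difference from an edgeR quasi-likelihood fit over all 12 libraries, and FDR is its Benjamini-Hochberg adjusted p over all 37598 genes, with the threshold of 0.25 that the study used.

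In glia, 9 of the 10 genes had a positive logFC after KA, and 2 passed the threshold, Serpina3n and Emp1, both upregulated. None was downregulated in glia or in neurons, also at an unadjusted p under 0.05 in edgeR and with DESeq2. Of all genes tested, 0.442% were upregulated in glia. In neurons all 10 had a positive logFC and 3 were upregulated (Vim, Serpina3n and Emp1), against 0.279% of all genes. The median logFC of the 10 genes was 1.76 in glia and 1.14 in neurons, beside 0.14 and 0.00 over all genes. Libraries with the same replicate number deviated together from their group means, most of all those numbered 3, so the number was also fitted as a block. With it, 6 of the 10 were upregulated in glia (Gfap, Vim, Serpina3n, Lcn2, Aspg and Emp1), where 3.47% of all genes were, and 4 in neurons (Gfap, Vim, Serpina3n and Emp1), where 1.94% were. Without the 4 libraries numbered 3, a comparison added after the data were seen, only Serpina3n passed in glia and only Vim in neurons.

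**Figure D1:**
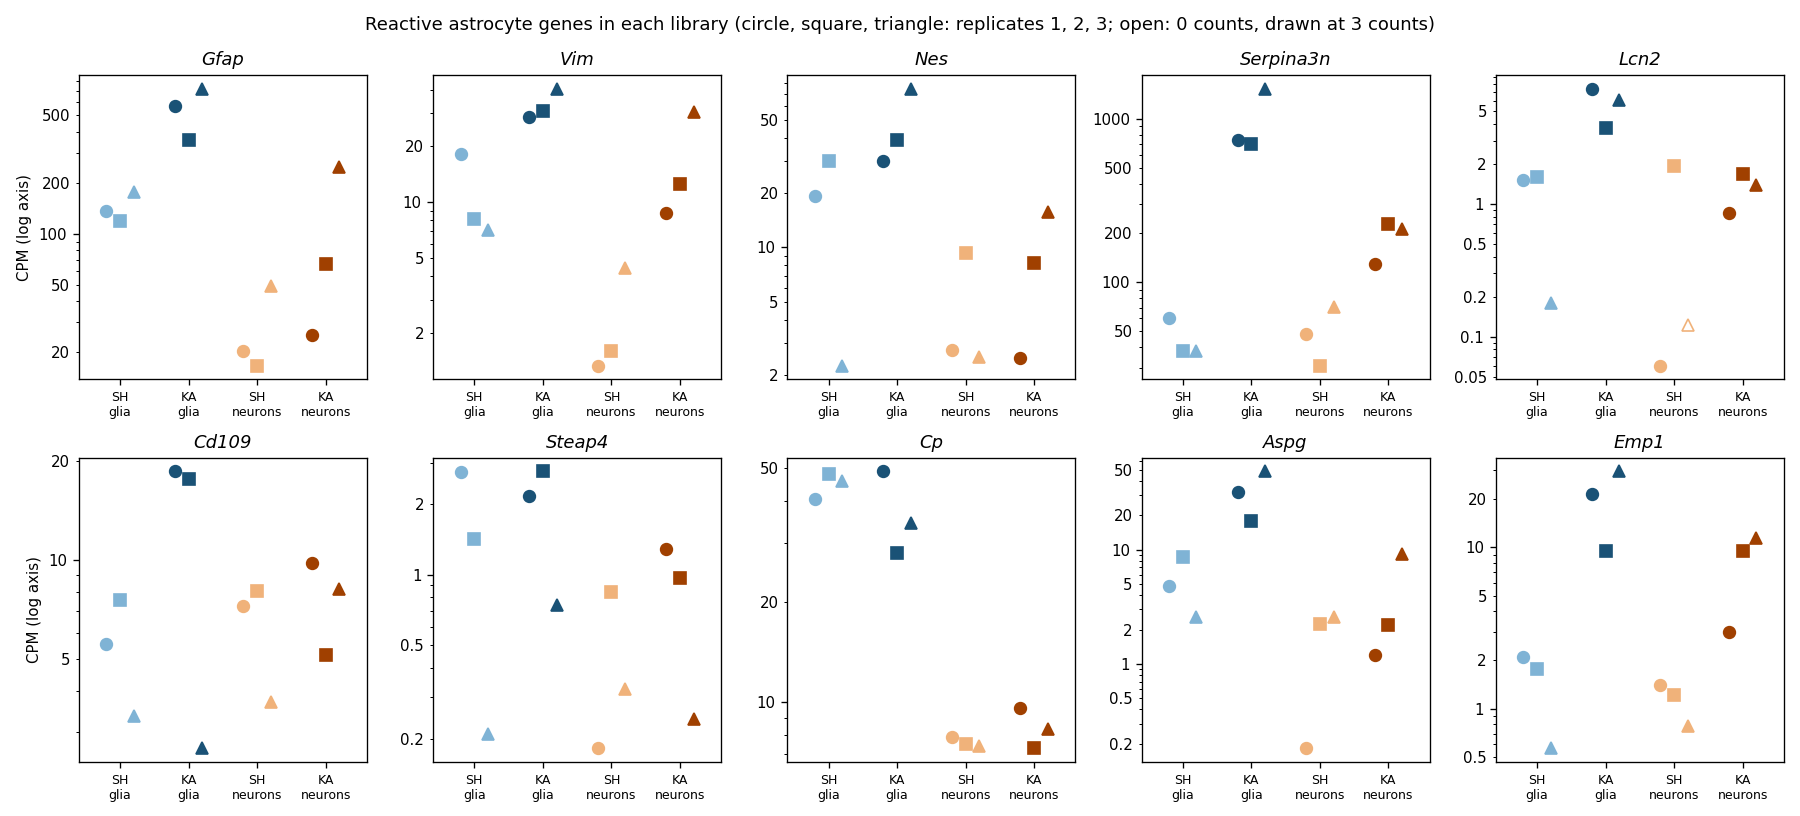
CPM (log axis, a different range in each panel) of the 10 genes in the 12 libraries, by group. Points are libraries and their shape gives the replicate number. Serpina3n in KA glia, between 698 and 1530 CPM, lies more than 10 times above its SH glia libraries, and Cp stays at 27.8 to 48.9 CPM in the glia of both treatments.

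The promoters of the 3 genes to which most of the results below return are shown first. They are Serpina3n and Emp1, upregulated in both fractions, and Gfap, the defining gene of the group. Each sequence is a RefSeq window of 300 bases on the gene's own strand (build GRCm38.p6), from 250 bases before a transcription start to 50 bases after it. Capitals mark 2 motifs that were searched on both strands: TTCNNNGAA, the palindrome that STAT factors bind, and TGANTCA, the palindrome that AP-1 (Fos and Jun) binds.
Serpina3n, chr12:104406458-104406757, plus strand: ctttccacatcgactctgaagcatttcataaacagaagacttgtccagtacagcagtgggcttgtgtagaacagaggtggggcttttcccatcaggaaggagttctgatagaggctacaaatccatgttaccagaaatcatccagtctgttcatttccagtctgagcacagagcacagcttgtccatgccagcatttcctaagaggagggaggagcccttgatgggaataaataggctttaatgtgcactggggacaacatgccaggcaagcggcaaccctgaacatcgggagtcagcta
Emp1, chr6:135362681-135362980, plus strand: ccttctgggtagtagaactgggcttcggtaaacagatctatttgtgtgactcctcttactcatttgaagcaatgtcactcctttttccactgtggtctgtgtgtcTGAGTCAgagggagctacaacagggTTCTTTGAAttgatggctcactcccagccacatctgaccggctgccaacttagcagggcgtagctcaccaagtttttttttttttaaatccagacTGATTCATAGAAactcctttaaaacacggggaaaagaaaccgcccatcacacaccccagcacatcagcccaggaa
Gfap, chr11:102897151-102897450, minus strand: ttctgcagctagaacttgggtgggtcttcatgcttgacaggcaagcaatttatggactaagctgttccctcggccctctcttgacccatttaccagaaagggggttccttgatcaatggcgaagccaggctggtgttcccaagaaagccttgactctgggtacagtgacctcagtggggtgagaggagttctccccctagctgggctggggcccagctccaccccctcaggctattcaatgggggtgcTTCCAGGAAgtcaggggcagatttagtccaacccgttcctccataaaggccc

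The Emp1 window shown held both motifs 2 times. An AP-1 match lay at -145 to -139 and a STAT match at -120 to -112 from the start, and a second AP-1 match at -25 to -19 overlapped a second STAT match at -22 to -14, so that both appear above as 1 run of capitals. A further Emp1 window in the RefSeq table, chr6:135367243-135367542, held neither motif. In Gfap a single STAT match spanned the start, from -2 to 7. The Serpina3n window held neither. Of the 9 genes with a window in the RefSeq table, 3 held the STAT motif (Gfap, Emp1 and Steap4, there at -116 to -108) and 2 the AP-1 motif (Emp1 and Cp, there at -177 to -171). Cp also had a further window, which held neither. The STAT motif was in a window of 9.55% of the 27025 genes of that table and the AP-1 motif in 8.97%. These matches describe letters in the windows, and factor binding was not measured.

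Gfap, Vim and Nes encode the intermediate filaments of reactive astrocytes. Gfap (ENSMUSG00000020932, chromosome 11 from 102887336 to 102900912), the filament protein by which astrocytes are usually recognised, measured 136, 119 and 176 CPM in SH glia and 568, 360 and 720 CPM in KA glia (replicates 1, 2 and 3). All 3 KA libraries lay above all 3 SH libraries, by 3.03- to 4.18-fold in the pairs of the same number. The logFC of 1.94 (SE 0.65, 95% interval 0.56 to 3.31) did not pass over all genes (FDR = 0.546), and with the replicate block it did (logFC 1.90, SE 0.30, FDR = 0.00142). Gfap also passed with separate fits of glia and neurons (FDR = 0.185), with DESeq2 (FDR = 0.137) and under some other settings. It passed in no fit that left out 1 library of glia. Of its 50-base exon words, 6.11% also occur elsewhere in the genome, in Gm26668, and reads from these would not have been counted as unique.

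In neurons Gfap measured 20.4, 16.7 and 49.4 CPM in SH and 25.2, 66.3 and 248 CPM in KA. The groups overlapped, since KA replicate 1 lay below SH replicate 3, and KA replicate 3 stood far above the other 5 libraries. The logFC was 1.97 (SE 0.65, FDR = 0.731) without the block and 1.58 (SE 0.32, FDR = 0.0128) with it. When the libraries of neurons were dropped singly, the logFC without the block was 0.67 to 2.61, lowest without KA replicate 3 (FDR = 1.00), and it passed without KA replicate 1 (FDR = 0.222).

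Vim (ENSMUSG00000026728, chromosome 2 from 13573927 to 13582826) encodes vimentin, the filament of immature glia and of endothelial and mesenchymal cells. In glia it measured 18.2, 8.13 and 7.08 CPM in SH and 28.6, 30.8 and 40.7 CPM in KA, without overlap (logFC 1.59, SE 0.53, FDR = 0.536, and 1.71, SE 0.34, FDR = 0.00846 with the block). Vim also passed in glia with DESeq2 (FDR = 0.211) and under some other settings. It did not with separate fits (FDR = 0.264), nor in any fit that left out 1 library of glia. In neurons it measured 1.33, 1.60 and 4.45 CPM in SH and 8.71, 12.6 and 30.6 CPM in KA. The KA libraries again lay above all SH libraries, and each pair showed a similar fold, 6.54 to 7.87. Vim was upregulated in neurons with a logFC of 2.80 (SE 0.56, 95% interval 1.62 to 3.99, FDR = 0.0943), the smallest FDR of the 10 genes in that fraction. The call was lost without SH neurons replicate 1 (FDR = 0.614), SH neurons replicate 2 (FDR = 0.386) or KA neurons replicate 3 (FDR = 0.743), with a logFC of 2.11 to 3.55 when the 6 libraries of neurons were dropped singly.

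Nes (ENSMUSG00000004891, chromosome 3 from 87971078 to 87980451) encodes nestin, a filament of progenitors, vessels and some reactive astrocytes. It measured 19.1, 30.0 and 2.24 CPM in SH glia and 29.8, 39.0 and 74.5 CPM in KA glia. The groups overlapped by a small margin, 29.8 in KA replicate 1 against 30.0 in SH replicate 2, and SH replicate 3 was the lowest library. The same library had the lowest sum of 7 endothelial markers in glia, 11.4 CPM against 40.2 and 40.4 CPM in the other SH libraries. KA glia replicate 3 also had the lowest sum of its group, 23.3 CPM against 59.8 and 56.8 CPM, but the highest Nes value. The part of these sums in the Nes values was not tested. The logFC in glia was 1.49 (SE 0.76, FDR = 1.00; 1.76 with the block, FDR = 0.261). In neurons Nes measured 2.49 to 9.27 CPM in SH and 2.48 to 15.6 CPM in KA, and only KA replicate 3 exceeded the SH range (logFC 0.86, SE 0.76, FDR = 1.00). Nestin is made of internal repeats, and 1.29% of its 50-base words occur at a second place within Nes itself.

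Serpina3n, Lcn2 and Cp encode secreted proteins of the acute phase. Serpina3n (ENSMUSG00000021091, chromosome 12 from 104406729 to 104414329) encodes a serine protease inhibitor related to human antichymotrypsin. It measured 60.1, 38.0 and 38.2 CPM in SH glia and 744, 698 and 1530 CPM in KA glia. The lowest KA library lay more than 10 times above the highest SH library, and the pairs differed by 12.4-, 18.4- and 40.1-fold. The logFC was 4.45 (SE 0.51, 95% interval 3.36 to 5.53, FDR = 0.00590), with the smallest p value of all 37598 genes in glia (1.57e-07). It stayed past the threshold when any 1 library of glia was left out, with a logFC of 3.98 to 4.78.

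In neurons Serpina3n measured 48.5, 30.9 and 70.3 CPM in SH and 129, 228 and 213 CPM in KA. The groups did not overlap, and the folds of the pairs were 2.65, 7.39 and 3.02. It was upregulated with a logFC of 1.93 (SE 0.46, 95% interval 0.95 to 2.90, FDR = 0.214). This call was close to the threshold: it held in 1 of the 6 fits that left out a library of neurons, the one without KA neurons replicate 1 (FDR = 0.223), the FDR was 0.402 to 1.00 in the other 5, and it was 0.507 without both low-input libraries. It was also lost with RLE size factors (FDR = 0.258) and without a filter on low counts (FDR = 0.664). With the replicate block it was 0.00265.

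Serpina3n lies in a cluster of related genes. Of its 50-base words 6.05% occur elsewhere in the genome, with 1.70% in the pseudogene Serpina3e-ps, and reads lying wholly within such words would not have been counted as unique. Among 18 related genes of the members' families (other Serpina3, Steap, Emp and similar genes), Serpina3i was upregulated in both fractions, from 2.42 ± 0.777 to 16.5 ± 10.2 CPM in glia (SD, n = 3; logFC 2.77, FDR = 0.110) and from 1.13 ± 0.550 to 7.72 ± 4.71 CPM in neurons (logFC 2.75, FDR = 0.169). Its call in glia was lost without both low-input libraries (FDR = 0.396). The other 17 did not pass in either fraction. With the replicate block 8 of the 18 were upregulated in glia, where 3.47% of all genes were.

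Lcn2 (ENSMUSG00000026822, chromosome 2 from 32384633 to 32388252) encodes lipocalin 2, which binds the iron carriers of bacteria. It was scarce, with 1.53, 1.61 and 0.179 CPM in SH glia and 7.39, 3.71 and 6.10 CPM in KA glia, or 6 to 33 counts against 85 to 148. All KA libraries of glia lay above all SH libraries, yet the wide spread of the SH libraries left a logFC of 2.39 with an SE of 1.18 (FDR = 1.00), and 2.67 with an SE of 0.83 under the block (FDR = 0.116). In neurons SH replicate 3 had 0 counts, which allows up to 0.122 CPM (3 counts, counting error only), SH replicate 1 had 1 count and SH replicate 2 had 1.94 CPM, above all 3 KA libraries (0.854, 1.67 and 1.38 CPM). The logFC of 0.95 in neurons (SE 1.15, FDR = 1.00) rested on that SH library: without it the value was 5.37, which still did not pass (FDR = 0.373).

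Cp (ENSMUSG00000003617, chromosome 3 from 19957054 to 20009145) encodes ceruloplasmin, a copper-carrying ferroxidase that astrocytes make also at rest. It measured 40.6, 48.0 and 45.8 CPM in SH glia and 48.9, 27.8 and 34.4 CPM in KA glia. It was the only one of the 10 with a negative logFC in glia, -0.27 (SE 0.30, 95% interval -0.90 to 0.35, FDR = 1.00), and the interval leaves room for a rise of at most 0.35 and a fall of at most 0.90. In neurons it was even, at 7.39 to 7.87 CPM in SH and 7.29 to 9.65 CPM in KA (logFC 0.15, SE 0.30, FDR = 1.00). Cp shares 108 exon bases (1.13% of its exons) with Hps3 on the opposite strand, where counting without strand gives reads to neither.

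Emp1, Cd109 and Steap4 encode proteins of the membrane, and Aspg an enzyme that splits asparagine. Emp1 (ENSMUSG00000030208, chromosome 6 from 135362545 to 135383173), a small 4-pass membrane protein first known from epithelia, measured 2.09, 1.75 and 0.568 CPM in SH glia and 21.5, 9.52 and 29.5 CPM in KA glia. Every KA library stood above every SH library, by 5.43-fold or more in each pair. It was upregulated with a logFC of 3.80 (SE 0.64, 95% interval 2.45 to 5.16, FDR = 0.0284) and ranked 25 by p among all genes in glia. The call held without any 1 library of glia (logFC 3.39 to 4.23) and without both low-input libraries (4.45, FDR = 0.0892), and was lost without the 4 libraries numbered 3 (3.00, FDR = 0.403).

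In neurons Emp1 measured 1.39, 1.22 and 0.776 CPM in SH and 2.99, 9.51 and 11.4 CPM in KA. The groups were apart, with KA replicate 1 nearest to SH. The logFC was 2.82 (SE 0.62, 95% interval 1.52 to 4.13, FDR = 0.146). The call held in 1 of the 6 fits without a library of neurons, that without KA replicate 1 (FDR = 0.0645), and the FDR was 0.409 to 0.945 in the other 5.

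Aspg (ENSMUSG00000037686, chromosome 12 from 112106679 to 112127559) measured 4.82, 8.66 and 2.57 CPM in SH glia and 32.1, 17.7 and 48.6 CPM in KA glia. The groups did not overlap, and the pairs differed by 6.65-, 2.05- and 18.9-fold. The logFC of 2.62 (SE 0.79, FDR = 0.376) passed only with the block (2.66, SE 0.53, FDR = 0.00714) and under some other settings. In neurons KA replicate 3, at 9.16 CPM, was the only library above the SH range of 0.182 to 2.57 CPM (logFC 1.32, SE 0.78, FDR = 1.00).

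Cd109 (ENSMUSG00000046186, chromosome 9 from 78615546 to 78716253), a protein of the alpha-2-macroglobulin family that dampens TGF-beta signalling, did not pass in either fraction. It measured 5.55, 7.55 and 3.35 CPM in SH glia and 18.6, 17.7 and 2.68 CPM in KA glia, where replicate 3 was the lowest of the 6 libraries while the other KA libraries were the highest (logFC 1.24, SE 0.59, FDR = 1.00). In neurons it ranged from 3.71 to 8.05 CPM in SH and from 5.14 to 9.82 CPM in KA (logFC 0.28, SE 0.59, FDR = 1.00). Steap4 (ENSMUSG00000012428, chromosome 5 from 7960457 to 7982213), a metal reductase, was the scarcest of the 10 per exon length in KA glia, with 0.209 to 2.73 CPM in SH glia and 0.741 to 2.75 CPM in KA glia. Its groups overlapped almost fully (logFC 0.40, SE 0.99, 95% interval -1.70 to 2.49, FDR = 1.00), and in neurons it measured at most 1.28 CPM (logFC 0.85, SE 1.02, FDR = 1.00).

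**Figure D2:**
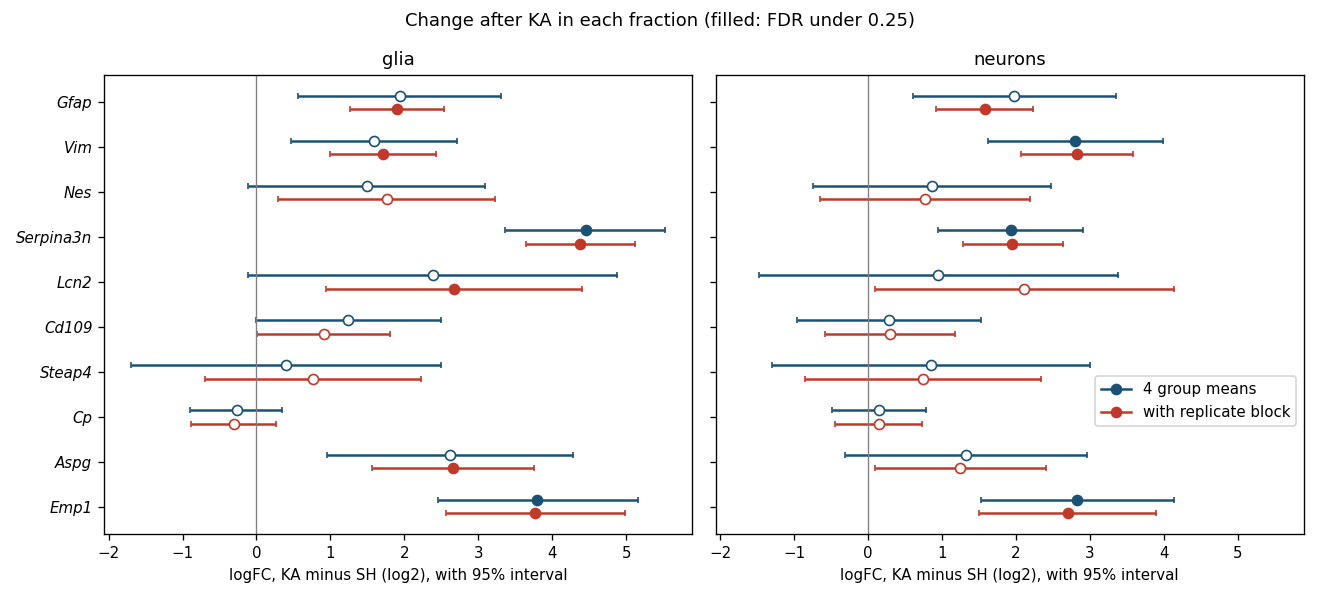
logFC (KA minus SH, log2) of the 10 genes in glia and in neurons with 95% intervals, from the fit of 4 group means (blue) and the fit with the replicate block (red). Filled points have an FDR under 0.25. Serpina3n at 4.45 and Emp1 at 3.80 are the 2 filled blue points in glia, and the block narrows the interval of Gfap in glia from 0.56 to 3.31 down to 1.27 to 2.53.

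Counted without a model, 6 of the 10 genes (Gfap, Vim, Serpina3n, Lcn2, Aspg and Emp1) had all 3 KA libraries above all 3 SH libraries in glia, where 3.61% of all genes did. In neurons 3 did (Vim, Serpina3n and Emp1), against 5.27% of all genes.

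The order of the genes was compared per exon length (RPKM), since longer genes collect more reads. In SH glia Gfap was the most abundant at 34.0 ± 6.90 RPKM (SD, n = 3), followed by Serpina3n at 22.0 RPKM, and their libraries overlapped. In KA glia the order was turned, with Serpina3n at 480 RPKM above Gfap at 130 RPKM without overlap. The third gene was far lower in both, Cp at 4.68 RPKM in SH glia and Aspg at 9.32 RPKM in KA glia. Behind Aspg came Nes (7.44), Vim (7.03), Cp (3.87), Emp1 (3.39), Lcn2 (2.19), Cd109 (1.88) and Steap4 (0.599), and of these neighbours only Vim and Cp did not overlap. In neurons Serpina3n led in both treatments, with 24.2 RPKM in SH and 92.0 RPKM in KA, and Gfap was second with 6.83 and 26.8 RPKM. Gfap in KA neurons overlapped the third gene, Vim, at 3.64 RPKM.

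The group is named for astrocytes, and in SH, without kainic acid, 5 of the 10 genes were higher in glia than in neurons: Gfap (logFC 2.31, FDR = 0.0305), Vim (2.16, FDR = 0.0163), Nes (1.81, FDR = 0.184), Cp (2.56, FDR = 0.000120) and Aspg (1.66, FDR = 0.249). Of all genes 7.57% were. The calls of Nes and Aspg depended on single libraries, and 3 genes (Gfap, Vim and Cp) were left without SH glia replicate 2, SH neurons replicate 1 or SH neurons replicate 3, or without both low-input libraries. Without SH neurons replicate 2 the call of Aspg was lost as well (FDR = 0.286) and Lcn2 passed (FDR = 0.0259). Without SH glia replicate 3 Steap4 passed too (FDR = 0.218). These fits do not pair the 2 fractions of a pool. In a fit with a block by pool Gfap, Vim, Cp, Nes (FDR = 0.0229) and Aspg (FDR = 0.0519) passed, and Lcn2 as well (FDR = 0.233). None of the 10 was higher in neurons, also at an unadjusted p under 0.05 in edgeR and with DESeq2.

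For Serpina3n no difference between the fractions of SH passed, and the interval leaves room for a difference in either direction. Its logFC between them was -0.14 (SE 0.45, 95% interval -1.08 to 0.81, FDR = 0.953), a sign that turned to 0.02 with RLE size factors and 0.07 with upper quartile factors. Cd109 (-0.21, SE 0.59) and Emp1 (0.35, SE 0.61) also had intervals that span 0. The SH glia libraries enter both this comparison and that of KA with SH in glia, so the values are not independent.

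The level in neurons was then set against the level in glia of the same pool. For Serpina3n it was 80.6%, 81.3% and 184% in the SH pools and 17.3%, 32.7% and 13.9% in the KA pools. Every KA pool lay below every SH pool. For Gfap it was 15.0%, 14.0% and 28.1% in SH and 4.43%, 18.4% and 34.4% in KA, which overlap. For Emp1 it was 66.6%, 69.7% and 137% in SH and 13.9%, 99.9% and 38.7% in KA, and KA replicate 2 lay within the SH range. For Vim it was higher in KA in each pair, 7.33%, 19.7% and 62.8% in SH against 30.5%, 40.9% and 75.2% in KA.

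As a yardstick for astrocyte RNA in the NeuN+ libraries, the sum of the 10 astrocyte markers was treated in the same way. It was 7.71%, 11.8% and 23.1% in SH and 12.1%, 33.1% and 48.8% in KA, higher in KA in each pair of the same number. The higher percentages came with a lower sum in glia (mean 2459 CPM in SH, 1286 CPM in KA), while the mean sum in neurons was 358 and 354 CPM. Slc1a2 was the largest single part of the sum in neurons. Its mean there was 126 CPM in SH and 177 CPM in KA, and in glia it was 451 and 257 CPM. Slc1a3, the next largest in neurons, had means of 69.3 and 38.8 CPM there and 788 and 385 CPM in glia. Percentages without Slc1a2 were not computed. The Gfap percentages lay above the marker percentages in every SH pool and below them in every KA pool. Those of Vim lay above the marker percentages in every KA pool and in SH replicates 2 and 3. Those of Serpina3n and Emp1 lay above them in every SH pool, and in KA the Serpina3n percentage was above in replicate 1 only and the Emp1 percentage in replicates 1 and 2. Whether Gfap, Vim, Serpina3n or Emp1 in NeuN+ libraries came from neurons or from carried-over astrocyte RNA was not tested.

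**Figure D3:**
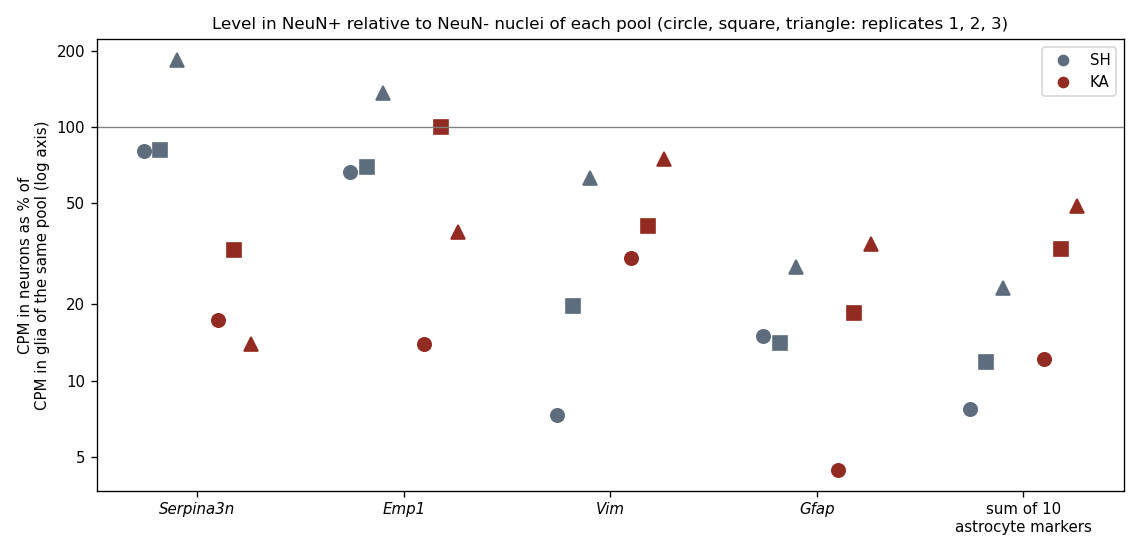
CPM in neurons as a percentage of CPM in glia of the same pool (log axis) for 4 of the genes and for the summed astrocyte markers. Points are pools, grey for SH and red for KA. Serpina3n falls from 80.6% or more in SH to 32.7% or less in KA, while Vim and the astrocyte markers lie higher in KA than in SH of the same replicate number.

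Whether the response to KA differed between the fractions was tested with a separate contrast, the logFC in glia minus that in neurons. For Serpina3n the logFC in glia exceeded that in neurons by 2.52 (SE 0.64, 95% interval 1.17 to 3.87, unadjusted p = 0.00111), which did not pass over all genes in edgeR's quasi-likelihood fit (FDR = 1.00). No gene passed there, only 502 of the 37598 genes tested had an unadjusted p under 0.05, and Serpina3n was the only one of the 10 among them. With a block by pool, which compares the fractions within each pool, Serpina3n passed (2.42, SE 0.43, FDR = 0.0557), as did 0.471% of all genes in either direction, and it was also among the 34 genes that passed with DESeq2 (FDR = 0.0395). For the other 9 genes the interval of the difference included 0: Vim had the lowest value, -1.21 (-2.78 to 0.36), and Gfap the one closest to 0, -0.04 (-1.91 to 1.83), a sign that turned with the block by pool (0.31).

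Taken as a sum, the astrocyte markers themselves did not rise in glia with the reactive genes. Their sum was 2681, 1913 and 2784 CPM in SH glia and 1851, 907 and 1101 CPM in KA glia, so that every KA library lay below every SH library (exact two-sided permutation test, p = 0.10, the smallest that 3 against 3 libraries allow; 0.367 adjusted over 22 sums). Of the 10, Aldoc, a glycolytic enzyme of astrocytes, was downregulated (264 to 78.0 CPM, logFC -1.76, FDR = 0.245), where 0.306% of all genes were, and that call was lost without both low-input libraries (FDR = 1.00). None was upregulated. With the replicate block 6 of the 10 were downregulated, and 4.17% of all genes. The median logFC of the markers was -0.83 in glia, where that of the reactive genes was 1.76. In neurons the sum was 207 to 643 CPM in SH and 224 to 538 CPM in KA (exact permutation p = 0.90). Single markers moved in opposite directions there. With the replicate block Sox9 was upregulated (10.7 to 32.8 CPM, FDR = 0.00454) and Aldoc downregulated (56.6 to 23.5 CPM, FDR = 0.0250). Without the block no marker passed in neurons. In such bulk samples fewer cells of a type and less RNA per cell cannot be told apart.

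Sums for other cell types in glia also moved with KA. Those of 8 oligodendrocyte markers (14180 to 29620 CPM in SH, 7466 to 14060 in KA), 5 precursor markers (1364 to 2371, 655 to 1355) and 5 meningeal fibroblast markers (361 to 411, 185 to 257) were lower in every KA library (each exact permutation p = 0.10). The fibroblast sum was mostly Pdgfra, which is also among the precursor markers, and the sum of the other 4 genes overlapped (40.1 to 63.4, 19.1 to 53.4). Those of 10 microglial (1119 to 2540, 831 to 1672), 7 endothelial (11.4 to 40.4, 23.3 to 59.8), 5 pericyte (61.5 to 121, 30.5 to 74.8), 7 ependymal and choroid (21.7 to 176, 19.6 to 36.9) and 7 progenitor markers (99.0 to 140, 86.6 to 109) overlapped. The 7 leukocyte markers, of which S100a8 was too low to test and was at 0 in SH glia, summed to 72.6 to 82.2 CPM in SH glia and 80.0 to 118 CPM in KA glia. In neurons the progenitor sum was higher (152 to 229, 231 to 281) and the fibroblast sum lower (70.1 to 105, 51.0 to 53.3) in every KA library (each exact permutation p = 0.10), and the other sums overlapped. Each rested on 1 gene, chosen after its values were seen: without Sox11 the progenitor sum overlapped (117 to 154, 103 to 124), and without Dcn the fibroblast sum overlapped (means 33.4 and 33.7 CPM). The part of these shifts in the values of the 10 genes was not tested.

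Other genes of the reactive programme were taken from lists, which were written with earlier results of these data known. The shares of all genes to set beside their counts were 0.442% upregulated in glia and 0.279% in neurons. Of 6 further pan-reactive genes, 4 were upregulated in glia and none downregulated: Timp1, an inhibitor of matrix proteases, from 0.766 ± 0.258 to 19.9 ± 4.38 CPM (SD, n = 3; logFC 4.71, FDR = 0.0214), S1pr3, a receptor of sphingosine 1-phosphate (logFC 3.23, FDR = 0.0257), Cd44, a receptor of hyaluronan (logFC 3.35, FDR = 0.0660), and Hspb1, a small heat shock protein (logFC 3.93, FDR = 0.0918). Timp1 (logFC 4.99, FDR = 0.0251) and Hspb1 (logFC 4.34, FDR = 0.0942) were upregulated in neurons too. The median logFC of the list was 3.29 in glia and 2.13 in neurons.

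Of 10 further genes described after ischaemia, 7 were upregulated in glia and 4 in neurons, and none was downregulated (medians 2.49 and 2.24). Among all genes 0.442% and 0.279% were upregulated. Without both low-input libraries the counts were 3 and 5, and the share of all genes there was not counted. Sphk1, which makes sphingosine 1-phosphate, rose from 5.47 ± 3.52 to 82.9 ± 41.4 CPM in glia (logFC 3.93, FDR = 0.0257), and Tm4sf1, a membrane protein of the tetraspanin kind, from 7.77 ± 7.12 to 153 ± 38.2 CPM (logFC 4.32, FDR = 0.0339). Ptgs2, the inducible cyclooxygenase, rose in both fractions (logFC 2.47 in glia, FDR = 0.0438, and 2.94 in neurons, FDR = 0.0335) and was the more abundant in neurons, with 357 ± 40.1 CPM in KA neurons against 42.3 ± 20.5 CPM in KA glia. Slc10a6, a steroid sulphate transporter, rose in glia (logFC 3.94, FDR = 0.0651). The glial calls of Ptgs2 (FDR = 0.906) and Slc10a6 (FDR = 0.321) were lost without both low-input libraries.

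Of 12 genes described after endotoxin, 1 was upregulated in glia, Iigp1, an interferon-induced GTPase (1.40 ± 0.876 to 10.5 ± 0.733 CPM, logFC 2.90, FDR = 0.0438), and none without both low-input libraries. In neurons none passed, and the median logFC was 0.56 in glia and 0.31 in neurons. Whether the 3 lists differ from each other was not tested.

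**Figure D4:**
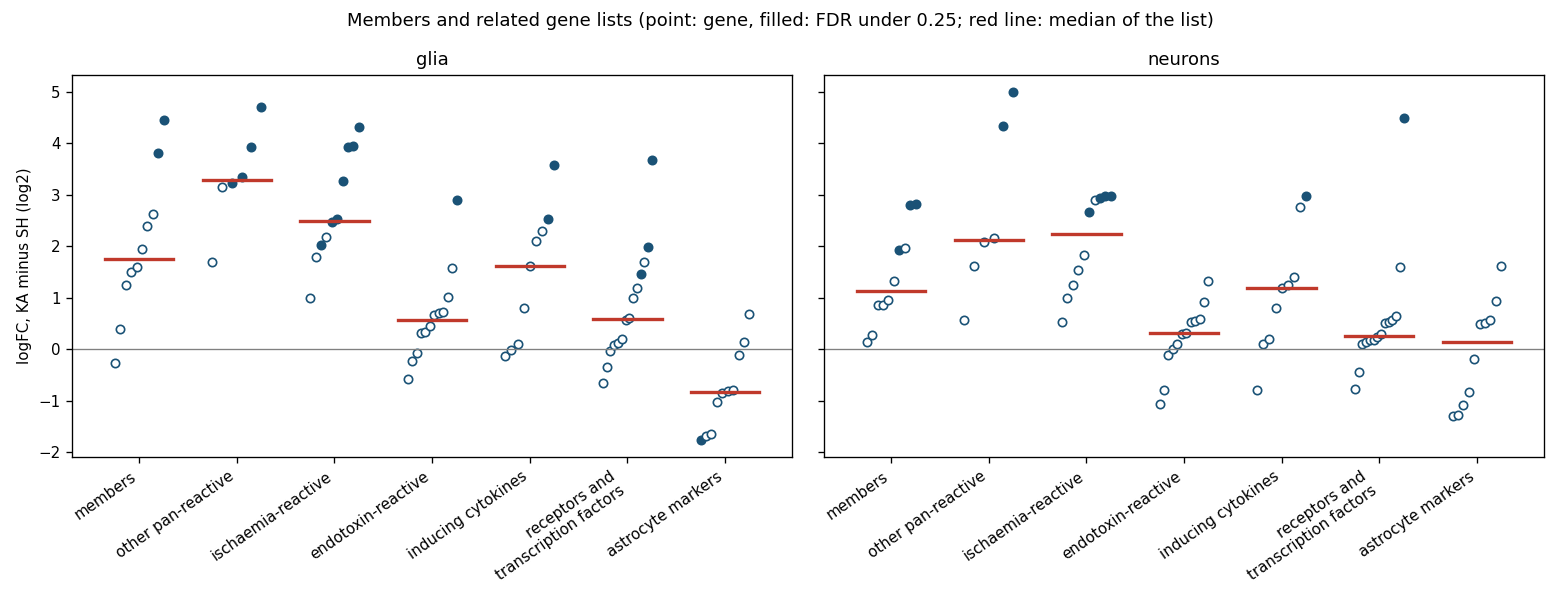
logFC (KA minus SH, log2) of the 10 genes and of related lists in glia and in neurons. Points are genes, filled where FDR is under 0.25, and the red line is the median of the list. In glia the medians run from 3.29 for the other pan-reactive genes to -0.83 for the astrocyte markers.

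Of 10 factors known to induce reactive astrocytes, which are cytokines and the complement protein C1qa, 9 could be tested. Lif (6.16 ± 3.40 to 72.3 ± 31.5 CPM, logFC 3.57, FDR = 0.235) and Clcf1 (10.1 ± 1.48 to 58.0 ± 35.7 CPM, logFC 2.52, FDR = 0.157), both of the interleukin-6 family, were upregulated in glia and Clcf1 in neurons (logFC 2.97, FDR = 0.142). Neither passed in glia without both low-input libraries. Clcf1 is also in the ischaemia list. Of 14 receptors, kinases, transcription factors and inhibitors that carry or limit such signals, 3 were upregulated in glia: Socs3, the feedback inhibitor that STAT3 induces (34.7 ± 21.2 to 441 ± 312 CPM, logFC 3.67, FDR = 0.0295), Cebpd (logFC 1.99, FDR = 0.0469) and Cebpb (logFC 1.47, FDR = 0.196), and 1 without both low-input libraries. Socs3 was upregulated in neurons as well, from 4.29 ± 0.875 to 96.3 ± 66.5 CPM (logFC 4.49, FDR = 0.0251). Of 7 other intermediate filament genes (such as Synm and the neurofilaments) none passed in either fraction, nor had an unadjusted p under 0.05 in edgeR, with medians of 0.49 in glia and 0.36 in neurons.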

How the data were processed

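The 12 mRNAseq libraries were analysed, and the 12 RRBS libraries were not analysed here. The members and gene lists were chosen with earlier results of these data known. After trimming and alignment to mm10 (Rsubread), the authors deposited uniquely mapped read counts per gene (featureCounts defaults, without strand, GENCODE M16). These defaults drop a read that falls on exons of several genes. Which library was sequenced on which platform was not named in the sources used here.

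Symbols and positions were taken from GENCODE M21, and 105 genes without a symbol were left out. The counts were filtered with filterByExpr (minimum count 10, total 15), scaled with TMM and fitted with edgeR 4.0.16 in R 4.3.3 (glmQLFit, legacy=TRUE, 4 group means), and standard errors were logFC over the square root of F. Intervals have a level of 95%. CPM used TMM-scaled library sizes, and RPKM the summed exon length. The replicate number was checked as a pairing. Deviations of same-numbered KA and SH libraries correlated across genes with r of 0.28 to 0.80 in the 6 pairs. Differently numbered pairs gave r of -0.69 to 0.29, so the lowest same-numbered value was not above all of them. Those with a positive r all joined replicates 1 and 2. A block was fitted beside the main model. The labels do not describe the pools as paired. List genes were named when past the threshold, at most the 4 with the smallest p. Alternatives were other edgeR settings, DESeq2 1.42.0, other filters, scalings and blocks, and libraries left out. Python 3.11.15 with matplotlib 3.10.9 made the plots.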

Additional observations from a re-analysis of the deposited data

How the results depend on the processing

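Of the reactive astrocyte genes, 2 were upregulated in glia in the fit reported and in each fit without 1 library of glia (2 to 2). The count was 4 with separate fits of glia and neurons, with upper quartile factors and with at least 10 counts in every library, 5 with DESeq2, with legacy=FALSE and with protein-coding genes only, 6 with the replicate block, and 1 without the 4 libraries numbered 3. In neurons the count of 3 became 0 at an FDR of 0.05, 1 without the 4 libraries numbered 3, and 0 to 4 without 1 library of neurons. It was 0 when replicate 1 or 2 of SH neurons or replicate 3 of KA neurons was left out, and 1 (Vim) when replicate 3 of SH neurons or replicate 2 of KA neurons was. It was 2, without Serpina3n, with RLE factors, without a filter and without both low-input libraries, and 4, with Gfap, with DESeq2, with at least 10 counts in every library and with the replicate block. For the difference between fractions, the count of 0 became 1, Serpina3n, with DESeq2, with at least 10 counts in every library and with the replicate block by pool. In SH, the count of genes higher in glia fell from 5 to 3 at an FDR of 0.05 and without both low-input libraries. It was 3 to 6 without 1 SH library and 6 with the replicate block by pool. The causes of these changes were not tested.

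No called logFC turned its sign. Among those not called, signs turned for Nes (-0.16) and Cd109 (-0.04) in neurons without the 4 libraries numbered 3, for the difference in Gfap (0.31 with the replicate block by pool, 0.05 without both low-input libraries) and Steap4 (0.06 with that block, 0.07 with legacy=FALSE), and for the SH fractions in Serpina3n (0.02 with RLE factors and with DESeq2, 0.07 with upper quartile factors, 0.00 without a filter, 0.21 with at least 10 counts, 0.14 with protein-coding genes) and Cd109 (0.07 with at least 10 counts). Leaving out 1 library gave ranges that cross 0 for Steap4 in glia (-0.14 to 1.45), for the difference in Gfap (-0.68 to 1.26), Nes (-0.28 to 1.33), Lcn2 (-2.99 to 2.02) and Steap4 (-1.27 to 0.58), and for the SH fractions in Serpina3n (-0.39 to 0.19) and Cd109 (-0.53 to 0.10). RLE and upper quartile factors moved the median of all genes between the SH fractions by 0.15 and 0.14. Lcn2, Steap4 and Aspg gave no value with at least 10 counts in every library, and separate fits gave none between fractions. Depth limits Lcn2 and Steap4, which had under 50 counts in all neuronal libraries.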
